A study of Drosophila melanogaster with 6 samples.

Results

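The phototransduction and eye genes of the adult fly head were compared between Kdm3 KO and the control stock wBerlin. The set holds 32 genes of the 17753 listed in the deposited count table. They were chosen by name as known parts of the light-signalling cascade, the chromophore supply, the rhabdomere and the corneal lens, with the rhodopsins left out. All 32 were found in the table. Of these, 31 had enough reads to be tested and 1, ninaA, was listed at 0 in every library. The labels describe whole heads of Drosophila melanogaster, 50 per library, from adults 2 to 7 days after eclosion kept at 25 °C and 70% humidity, with 3 libraries per genotype after removal of ribosomal RNA. wBerlin is a stock that carries a mutation of the eye pigment transporter gene w. Kdm3 codes for a histone demethylase. The sample titles call the replicates biological. The sources used here do not give the construction of the Kdm3 allele, the sex of the flies, or whether replicates came from separate vials. The p-values thus describe the spread between these libraries, part of which may be technical.

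In fly photoreceptors, light turns rhodopsin into its active form, which switches on a Gq protein and phospholipase C and so opens the TRP and TRPL cation channels. The cascade sits in the rhabdomere, a stack of microvilli, much of it bound to a scaffold protein. Arrestins, a phosphatase and calcium end the response, and a lipid cycle restores the substrate of phospholipase C. Rhodopsin also needs a retinal-type chromophore made from dietary carotenoids, and light reaches the cells through a lens of secreted corneal proteins.

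Total counts ran from 19850981 to 28237382 per library. Values are CPM, counts scaled to library size with TMM factors, and 3 counts correspond to 0.108 to 0.138 CPM. The targeted gene Kdm3 held 32.5, 30.1 and 28.7 CPM in the wBerlin libraries 1, 2 and 3 and 3.86, 0.642 and 0.710 CPM in Kdm3 KO (log2 fold change −4.09, SE 0.49, adjusted p = 0.00344). The gene w was 15.2-fold higher in Kdm3 KO (1.62 ± 0.150 against 24.7 ± 3.71 CPM, SD, n = 3, adjusted p = 3.91e-06), so the groups also differ at an eye pigment gene. Its part in the values below was not tested. Known markers were looked up beside the tissue label. All 7 rhodopsin genes, all 8 neuronal markers and 6 of 7 glial markers passed the filter on low counts. The other glial gene, Gat, lies on chromosome 4, where every gene is listed at 0. That filter was passed by 14069 of the 17753 listed genes, and by all antennal and hemocyte markers, so passing it does not verify the tissue.

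Before the genotypes are compared, libraries of 1 genotype stood apart from each other. In wBerlin, 28 of 31 tested members were highest in replicate 1, as were 35.2% of all tested genes. In Kdm3 KO, 29 of 31 were lowest in replicate 2, as were 48.2% of all genes. The exceptions in Kdm3 KO were trpgamma, highest in replicate 2, and ninaD, lowest in replicate 1. The members' median deviation from the group mean was 0.20 on the log2 scale in wBerlin replicate 1 and −0.19 in Kdm3 KO replicate 2, where that of all genes was 0.00 and −0.04. Their summed level was 45142, 36625 and 34103 CPM in wBerlin and 41809.5, 32445 and 39099 CPM in Kdm3 KO, so the groups overlapped. Other head tissues shifted between the same libraries. The 8 neuronal markers had median deviations of 0.18 and −0.11 in those libraries. The 6 antennal markers summed to 339.6, 634 and 741 CPM in wBerlin and 245 to 347 CPM in Kdm3 KO, and the 7 muscle markers were at 15641 CPM in wBerlin replicate 1 and 24252 and 30946 CPM in replicates 2 and 3, and at 12394 to 19620.4 CPM in Kdm3 KO. No antennal, muscle or neuronal marker was at 0 in all libraries. By edgeR the antennal genes Obp83a, Obp83b and Os-C and the muscle gene Act87E fell in Kdm3 KO, the fat body gene Apoltp rose, and no neuronal, glial or hemocyte marker was called. The muscle list was not uniform. Its genes Act88F, TpnC4 and fln were at 1276, 87.8 and 14.4 CPM in Kdm3 KO replicate 2, where most members were lowest, and at no more than 53.2, 1.02 and 0.914 CPM in the other Kdm3 KO libraries. Their log2 fold changes were 1.68, 3.93 and 2.96, and none passed. In whole heads, fewer eye cells and less RNA per eye cell cannot be told apart, and the part of tissue make-up in the fold changes was not tested.

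**Figure D1:**
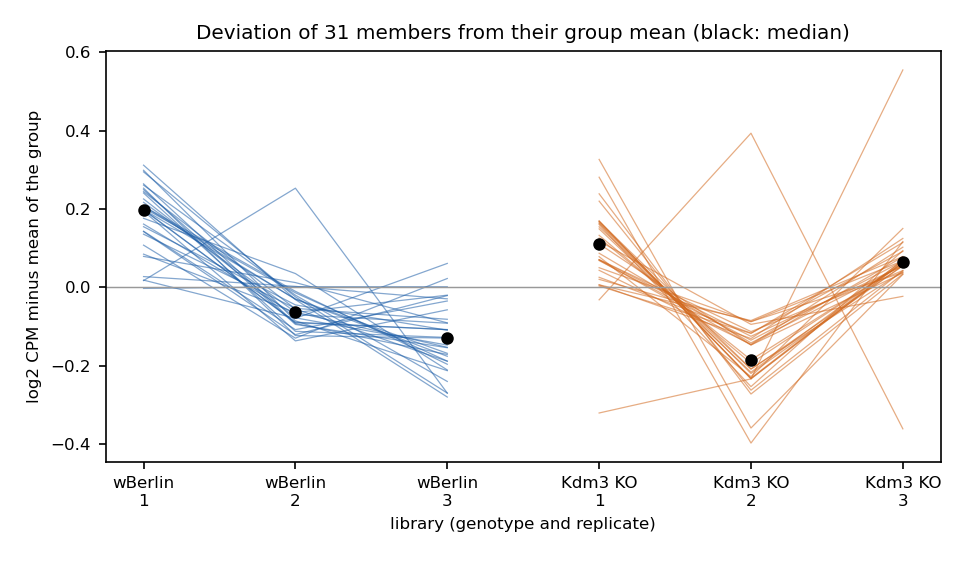
Log2 CPM of each of the 31 tested members minus the mean of its genotype (y axis) in each library (x axis), with 1 line per gene and black points for the median. The median is 0.20 in wBerlin replicate 1 and −0.19 in Kdm3 KO replicate 2; lines join values of a gene, and replicates have no order.

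For most members the measured difference between genotypes was small. Of the 31 tested members 0 rose and 3 fell in Kdm3 KO by edgeR's quasi-likelihood test at an adjusted p under 0.05. The 3 were Cpr72Ec, stops and inaF-B, with a lens, a termination and a channel role. Over all 14069 tested genes, 2.15% were called higher and 0.917% lower. The lower share depended on the libraries, at 3.24% without wBerlin replicate 1, where 268 genes were higher and 467 lower. At an unadjusted p under 0.05 there was 1 higher member of 31, ninaD, against 7.14% of all tested genes. DESeq2 called ninaD and limma voom did not. DESeq2 called 514 genes higher, 4.65% of the 11052 to which it gave an adjusted p. The members' median log2 fold change was 0.01 (0.04 over all tested genes), with 16 positive and 15 negative. Of the 28 members that did not pass, 25 had an absolute log2 fold change under 0.20. The 95% interval of the difference lay within 1.5-fold either way for 24 of them and within 2-fold for 27, the exception being ninaD. Without wBerlin replicate 1 and Kdm3 KO replicate 2 the same 3 members were called lower, where 3.39% of all genes were. Their log2 fold changes were closer to 0 in those 4 libraries, at −0.79 for Cpr72Ec, −0.57 for inaF-B and −0.52 for stops. Each was highest of its genotype in wBerlin replicate 1 and lowest in Kdm3 KO replicate 2. Leaving these libraries out thus moves their fold changes toward 0 by construction. The libraries of the genotypes did not overlap for 5 members (16.1%), the 3 called genes with ninaD and Calx, against 18.7% of all tested genes.

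**Figure D2:**
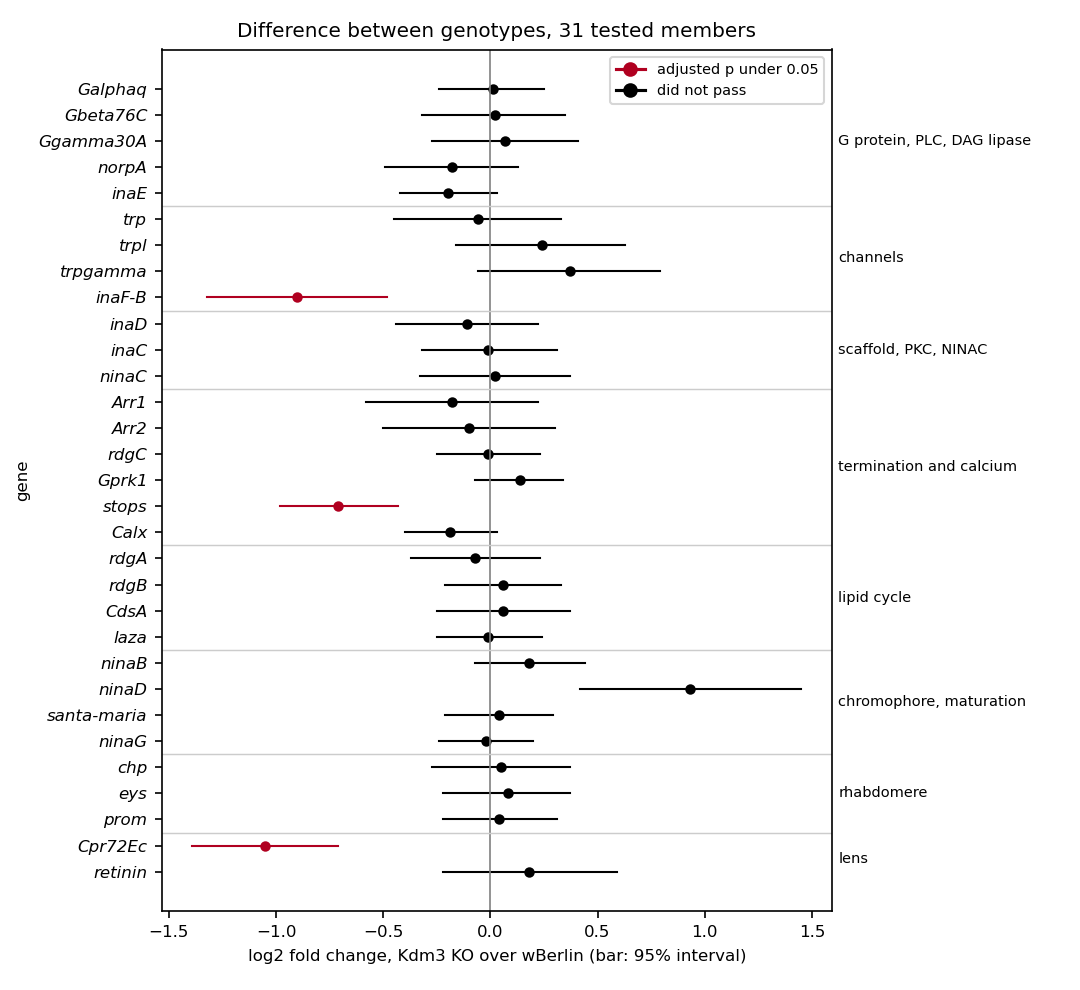
Log2 fold change of Kdm3 KO over wBerlin (x axis) for the 31 tested members (y axis), grouped by role, with bars for the 95% interval of the edgeR fit and red for an adjusted p under 0.05. Cpr72Ec, stops and inaF-B lie at −1.05, −0.71 and −0.90, ninaD lies at 0.93 without passing, and most others lie close to 0.

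The G protein and phospholipase step showed no call. Gbeta76C, the eye's beta subunit, had the highest level per exon length of this step. It was at 1348, 1093 and 1041 CPM in libraries 1, 2 and 3 of wBerlin and at 1310.0, 991 and 1219.6 CPM in Kdm3 KO. These ranges overlap almost wholly (log2 fold change 0.02, SE 0.15). The alpha subunit gene Galphaq and the gamma subunit gene Ggamma30A had log2 fold changes of 0.01 and 0.07. Part of Galphaq shares exons with CG45086, which is listed at 0 counts, so its level per length is uncertain. The phospholipase C gene norpA was at 2251 ± 306 and 1988 ± 146 CPM (SD, n = 3, log2 fold change −0.18, 95% interval −0.49 to 0.13). The diacylglycerol lipase gene inaE had the lowest p of the step. Its libraries held 142, 135 and 126 CPM in wBerlin and 118, 107 and 128 CPM in Kdm3 KO. Kdm3 KO replicate 3 lay above wBerlin replicate 3, and inaE did not pass the test (log2 fold change −0.20, SE 0.10, adjusted p = 0.419).

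Among the channel genes, the main light-gated channel gene trp was at 4338, 3324 and 3044 CPM in wBerlin and 3830.1, 2898 and 3559 CPM in Kdm3 KO. The groups overlapped and trp did not pass (log2 fold change −0.06, 95% interval −0.45 to 0.33). Its partner trpl, the other light-gated channel, was at 2602, 2052 and 1727 CPM in wBerlin and 2788, 2120.5 and 2612 CPM in Kdm3 KO. The log2 fold change of trpl was 0.24 (SE 0.18, adjusted p = 0.628), 0.52 (adjusted p = 0.0434) when wBerlin replicate 1 and Kdm3 KO replicate 2 were left out together. In those 4 libraries 4.32% of all genes were called higher, and ninaB was the other member among them. Within their genotypes, trpl and ninaB were highest in wBerlin replicate 1 and lowest in Kdm3 KO replicate 2. Leaving these libraries out raises both fold changes by construction. The related channel gene trpgamma was scarce in heads, at 5.57, 5.58 and 5.58 CPM in wBerlin and 6.88, 9.26 and 5.46 CPM in Kdm3 KO. Kdm3 KO replicates 1 and 2 were above all controls and replicate 3 was below them, and trpgamma did not pass (log2 fold change 0.37, SE 0.19, adjusted p = 0.433).

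The channel member that fell was inaF-B (FBgn0259918, BDGP6, arm X, 11724668 to 11732770, minus strand), which codes for a small membrane protein needed for TRP channel function. It was at 166, 133 and 112 CPM in libraries 1, 2 and 3 of wBerlin and at 87.4, 54.6 and 78.0 CPM in Kdm3 KO. Every Kdm3 KO library was below every wBerlin library. It fell by 0.90 on the log2 scale, 1.87-fold (SE 0.19, adjusted p = 0.0340), and the call ended without wBerlin replicate 2 (log2 fold change −0.97, adjusted p = 0.0765) or Kdm3 KO replicate 3 (−0.94, adjusted p = 0.0830). Exons of inaF-B are mostly shared with inaF-A, inaF-C and inaF-D on the same strand. Of its 3113 exon bases, 416 belong to no other counted gene. Those partners were at mean levels of 1.97, 5.89 and 1.23 CPM, with log2 fold changes of −0.43, −0.11 and −0.65, and none passed the test. Which of these exons its reads came from was not analysed here, so the level of inaF-B as a single gene is uncertain.

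No gene of the scaffolded signalling complex was called. The scaffold gene inaD, whose PDZ domains hold the channel, the phospholipase and the kinase together, had a log2 fold change of −0.11. The eye protein kinase C gene inaC and ninaC, a myosin III with a kinase domain, were at −0.01 and 0.02. The most abundant of them per length, ninaC, was at 5023, 4136 and 3887 CPM in wBerlin and 4820.2, 3844 and 4588 CPM in Kdm3 KO. In both genotypes the highest library of ninaC was replicate 1.

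**Figure D3:**
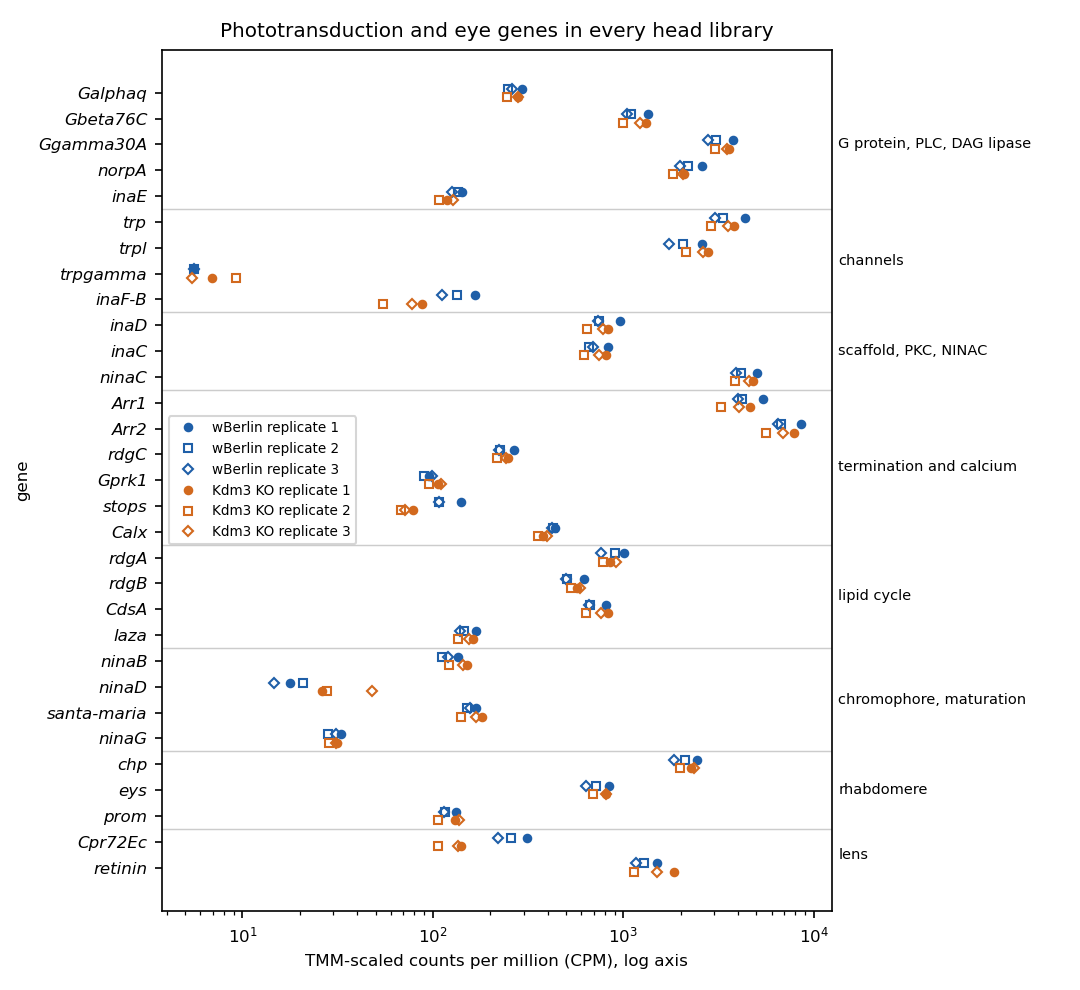
TMM-scaled CPM on a log axis (x) for each of the 31 tested members (y), with 1 point per library, wBerlin in blue and Kdm3 KO in orange. Levels run from trpgamma at 5.58 CPM to Arr2 at 7280.2 CPM in the wBerlin mean, and the blue and orange points separate for Cpr72Ec, stops, inaF-B, ninaD and Calx.

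Genes that end the light response were led in level by Arr2, the major arrestin, which caps active rhodopsin. Arr2 was at 8585, 6764 and 6492 CPM in wBerlin and 7829, 5604 and 6925 CPM in Kdm3 KO (log2 fold change −0.10, SE 0.18). Arr1 had a log2 fold change of −0.18. Neither arrestin passed the test, and their groups overlapped. The rhodopsin phosphatase gene rdgC was at −0.01 on the same scale. Gprk1, a kinase that acts on activated receptors, was at 95.7, 89.5 and 98.6 CPM in wBerlin and 106, 95.6 and 110.5 CPM in Kdm3 KO. Its groups overlapped through Kdm3 KO replicate 2, and Gprk1 did not pass (log2 fold change 0.14, adjusted p = 0.595). Calx, the sodium and calcium exchanger that clears calcium after a response, was at 437, 429.6 and 420.2 CPM in wBerlin and 378, 355 and 398 CPM in Kdm3 KO. All 3 Kdm3 KO libraries were below the controls, by a small step that did not pass (log2 fold change −0.19, SE 0.10, adjusted p = 0.437).

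The termination gene that fell was stops (FBgn0086704, arm 3R, 31158156 to 31169106, minus strand), which codes for a SOCS box protein known to keep up the level of the phospholipase C protein NORPA. It was at 139.7, 108 and 107 CPM in wBerlin and at 78.4, 67.7 and 71.1 CPM in Kdm3 KO. The groups did not overlap, and the highest Kdm3 KO library was below the lowest control. It fell by 0.71 on the log2 scale, 1.63-fold (SE 0.12, 95% interval −0.98 to −0.43, adjusted p = 0.0144). Without Kdm3 KO replicate 3 the adjusted p was 0.0541, with a log2 fold change of −0.69. The gene shares 158 of its 2297 exon bases with Gycbeta100B on the opposite strand, which had a log2 fold change of 0.06 and did not pass. On the same arm, stops lies 21.64 Mb from Kdm3, and the rhabdomere gene chp, 21.68 Mb away, had a log2 fold change of 0.05.

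The lipid cycle showed no call. The diacylglycerol kinase gene rdgA was at −0.07 on the log2 scale, and rdgB, whose protein carries phosphatidylinositol between membranes, was at 0.06. CdsA (annotated as Cds), the CDP-diacylglycerol synthase, had the highest level of the 4 per length. It was at 814, 666 and 658 CPM in wBerlin and 829.6, 639 and 759 CPM in Kdm3 KO (log2 fold change 0.06, SE 0.14). The lipid phosphatase gene laza was at 151 ± 14.7 and 150.2 ± 13.6 CPM (SD, n = 3).

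Chromophore supply held the member nearest to a call on the higher side. ninaD (FBgn0002939, arm 2L, 18081628 to 18083608, plus strand) codes for a scavenger receptor that takes up carotenoids, in the midgut among other places. It was at 17.8, 20.9 and 14.6 CPM in wBerlin and at 26.2, 27.8 and 48.1 CPM in Kdm3 KO. The groups did not overlap, and Kdm3 KO replicate 3 stood well above the other libraries of its genotype. The log2 fold change was 0.93 (SE 0.23, 95% interval 0.42 to 1.45, adjusted p = 0.0666). DESeq2 gave an adjusted p of 0.000869, and edgeR without Kdm3 KO replicate 1 gave 0.0265. Without Kdm3 KO replicate 3 the log2 fold change was 0.61 (adjusted p = 0.112), and without wBerlin replicate 3 it was 0.75 (adjusted p = 0.170). The summed level of 7 midgut digestive genes, a list chosen after the data were seen, was 9.34 to 16.2 CPM in wBerlin and 9.82, 112 and 8.70 CPM in Kdm3 KO replicates 1, 2 and 3. The gut list was thus highest in replicate 2 and ninaD in replicate 3. The summed level of 7 fat body markers was 2810.1 to 3862 CPM in wBerlin and 4616, 3622 and 4806 CPM in Kdm3 KO. Of the lists, 3 gut and 6 fat body genes passed the filter, the fat body gene apolpp on chromosome 4 being at 0. The part of gut or fat body RNA in the ninaD values was not tested. Its neighbour Arr1, which ends 320 bases before ninaD on the same strand, had a log2 fold change of −0.18.

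The other chromophore genes did not pass. The carotenoid oxygenase gene ninaB was at 135, 112 and 120.1 CPM in wBerlin and 151, 122 and 144 CPM in Kdm3 KO. Its groups overlapped, with a log2 fold change of 0.18 (SE 0.11, adjusted p = 0.535), 0.35 (adjusted p = 0.0451) in the 4 libraries named above. Santa-maria, another scavenger receptor for carotenoids, and ninaG, an oxidoreductase of chromophore synthesis, had log2 fold changes of 0.04 and −0.02.

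The gene ninaA codes for a cyclophilin that chaperones the main rhodopsin and had 0 counts in all 6 libraries. Its exons lie wholly inside exons of CG15824 on the opposite strand. Across the table, 64 of 65 protein-coding genes placed like this, with no exon shared on their own strand, were at 0 in every library. So were all 307 genes wholly inside exons of same-strand genes, against 153 of 9225 genes that share no exon base (1.66%). The 0 of ninaA thus gives no level for its RNA. The rhodopsin and TRP chaperone gene Xport-A, also at 0, lies inside Xport-B on the same strand.

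No rhabdomere gene was called. The adhesion protein gene chp, which holds microvilli together, was at 2437, 2096 and 1843 CPM in wBerlin and 2264, 1986 and 2358 CPM in Kdm3 KO. Its groups overlapped (log2 fold change 0.05, 95% interval −0.27 to 0.37). The gene eys, whose secreted product opens the space between rhabdomeres, was at 0.08 on the log2 scale, and its partner prom at 0.04.

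The lens gene Cpr72Ec had the largest fall of all 31 tested members. Cpr72Ec (FBgn0036619, arm 3L, 16365894 to 16367340, minus strand) codes for a cuticle protein of the corneal lens. It was at 312, 257 and 221 CPM in wBerlin and at 141, 106 and 135 CPM in Kdm3 KO. No library of one genotype reached the range of the other. It fell by 1.05 on the log2 scale, 2.07-fold (SE 0.15, 95% interval −1.39 to −0.71, adjusted p = 0.00705), and it was called in all 15 alternative settings (adjusted p 2.11e-10 to 0.0230). The neighbouring gene CG4842, 1048 bases away on the opposite strand, also fell (log2 fold change −0.62, adjusted p = 0.0473). On the other side lies Cpr72Eb, at 1.03 CPM, with a log2 fold change of 0.07 that did not pass. Some members without a call had called neighbours too, all of them higher. These were Adgf-D overlapping ninaB (log2 fold change 0.77), Yp3 beside rdgB (1.18), CG11449 beside laza (0.98) and CG5958 beside santa-maria (0.87). Whether neighbours changed together was not tested. The other lens member, the corneal protein gene retinin, was at 1502, 1283 and 1165 CPM in wBerlin and 1839, 1143 and 1500.2 CPM in Kdm3 KO. Its groups overlapped, and retinin did not pass (log2 fold change 0.18, SE 0.18, adjusted p = 0.725). The corneal genes Crys and Cpr66D, which are not members, had log2 fold changes of 0.28 and −0.17 and did not pass.

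**Figure D4:**
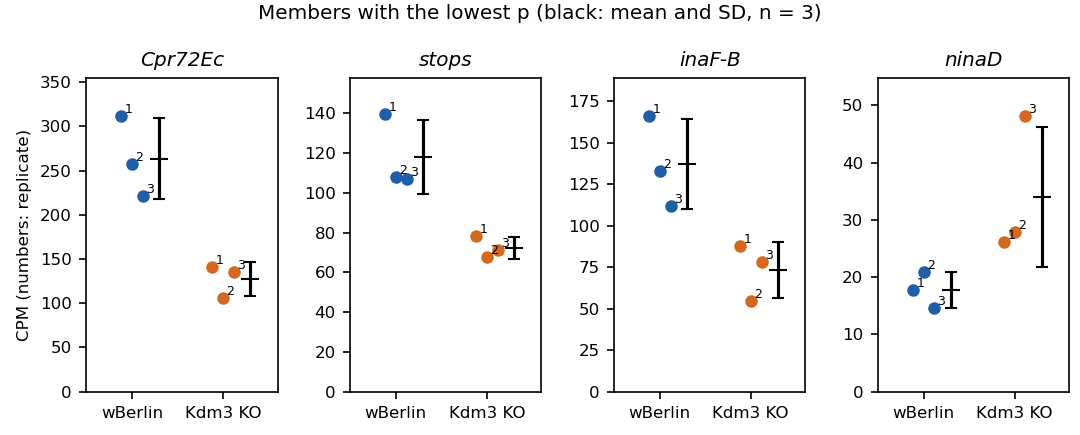
CPM of the 4 members with the lowest p (y axis from 0) by genotype (x axis), with 1 point per library numbered by replicate and the mean and SD (n = 3) in black. Cpr72Ec, stops and inaF-B are lower in every Kdm3 KO library, and ninaD is higher, most of all in replicate 3 at 48.1 CPM.

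Levels differed widely among members. Per kilobase of exon that no other counted gene shares, Arr2 was at 4706 CPM in wBerlin, followed by Arr1 at 1826 and retinin at 1649.9 CPM per kb. The channel gene trp stood at 860.1 and ninaC at 802 CPM per kb, while trpl was at 546 CPM per kb. At the other end, ninaD was at 9.93 and trpgamma at 1.05 CPM per kb. On this scale the 3 called genes lay between these ends in wBerlin, inaF-B at 330, Cpr72Ec at 182 and stops at 55.2 CPM per kb. The value of inaF-B is 44.1 CPM per kb over all its exons. Exons of all isoforms were joined, which lowers the level of genes with many isoforms.

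Ratios between members within a library set this shared shift aside. Of 9 pairs, 5 had no overlap between genotypes, and the share over all pairs of genes was not computed. The pairs were picked with the values known, so they are described without a test. The numerators inaF-B, stops and Cpr72Ec were already called lower without overlap, so their pairs add no separate support. The ratio of trpl to trp was 0.600, 0.617 and 0.567 in wBerlin and 0.728, 0.732 and 0.734 in Kdm3 KO, 1.23-fold higher. The SD of this ratio was 0.0253 in wBerlin and 0.00311 in Kdm3 KO (n = 3). The ratio of inaF-B to trp was 0.0384 ± 0.00158 in wBerlin and 0.0212 ± 0.00209 in Kdm3 KO (SD, n = 3). For stops to norpA it was 0.0524 ± 0.00287 and 0.0365 ± 0.00170, and for Cpr72Ec to retinin 0.199 ± 0.00929 and 0.0864 ± 0.00848 (SD, n = 3). The ratio of Arr1 to Arr2 was 0.621 ± 0.00698 and 0.586 ± 0.00659 (SD, n = 3), a step of 0.945-fold. Ratios that overlapped were Gbeta76C to Galphaq, at 4.33 and 4.35, norpA to trp, rdgB to rdgA and ninaD to ninaB. These ratios describe the libraries at hand, do not establish unequal change and do not say which of the genes changed.

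**Figure D5:**
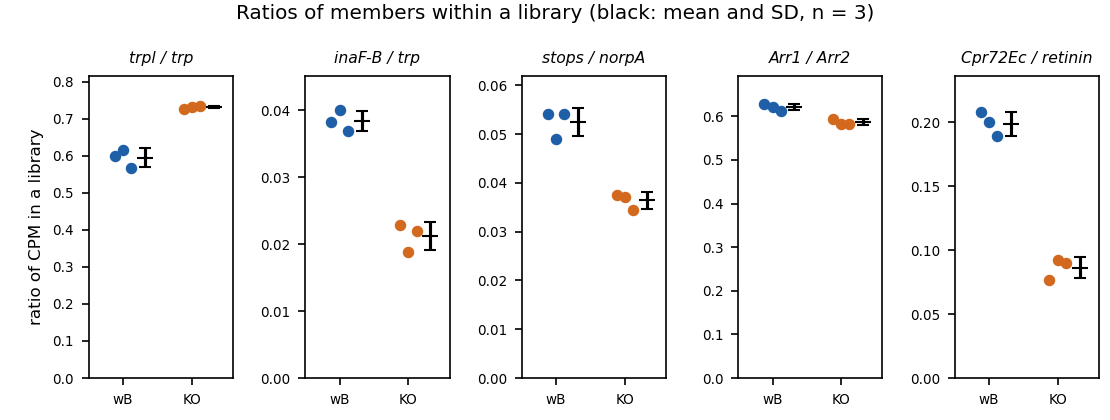
Ratio of the CPM of 2 members within a library (y axis from 0) by genotype (x axis, wB for wBerlin and KO for Kdm3 KO) for the 5 pairs without overlap, with 1 point per library and the mean and SD (n = 3) in black. The trpl to trp ratio is higher in Kdm3 KO at 0.731, and the other 4 ratios are lower.

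When the libraries were scaled by the median ratio of the 31 tested members in place of TMM, an alternative added later with the values known, 0 members were higher and the same 3 lower. With that scaling 2.38% of all genes were called higher and 0.611% lower. Such scaling removes any shift shared by the members by construction, so it cannot show a change of the whole set.

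Genes around the set gave few calls. Of 27 tested further genes linked to fly phototransduction, among them partner G protein subunits, lipid kinases and retinoid handling genes, 0 rose and 0 fell by edgeR, with none at an unadjusted p under 0.05 and a median log2 fold change of 0.00. Over all tested genes, 7.51% were lower at an unadjusted p under 0.05. Of 11 rhabdomere and apical membrane genes none was called and 1, the cadherin gene shg, was lower at an unadjusted p under 0.05 (log2 fold change −0.26), with a median of −0.14. Of 14 tested eye transcription factor genes none was called either, and the median was −0.23. At an unadjusted p under 0.05 salr, so, BarH1, BarH2 and ss were lower, 5 of the 14 beside 7.51% of all tested genes. Their log2 fold changes were −0.23, −0.35, −0.33, −0.39 and −0.88. The ss groups overlapped, at 8.73, 21.5 and 25.1 CPM in wBerlin and 8.87, 11.7 and 9.32 CPM in Kdm3 KO. For ss, wBerlin replicate 1 lay below every Kdm3 KO library. BarH2 too was lowest of wBerlin in replicate 1, at 15.5 CPM against 17.8 and 20.5 in replicates 2 and 3. In that library so and BarH1 were at their wBerlin highest, and salr lay between. The antennal markers summed lowest there among the wBerlin libraries, and the part of antennal RNA in these values was not tested. Of 7 rhodopsins 1 was called lower, beside 0.917% of all tested genes, and the median was −0.16. At an unadjusted p under 0.05, 2 were lower, Rh5 and Rh7, beside 7.51% of all tested genes. Rh7 had a log2 fold change of −0.32 and did not pass (adjusted p = 0.151). Rh5, the blue rhodopsin of a subset of R8 photoreceptors, was at 198, 167 and 132 CPM in wBerlin and 107, 74.3 and 96.2 CPM in Kdm3 KO (log2 fold change −0.84, SE 0.17, adjusted p = 0.0306). The main rhodopsin ninaE was at 12999 ± 2983 and 10456 ± 1697 CPM (SD, n = 3, log2 fold change −0.31, adjusted p = 0.564). Of 8 tested genes of histamine transmission, the photoreceptors' output signal, none was called and the median was 0.01. Among the 8, and again beside 7.51% of all tested genes, Hdc, the histamine synthesis enzyme, and b, a decarboxylase that makes beta-alanine, were lower at an unadjusted p under 0.05, with log2 fold changes of −0.28 and −0.54. Rh7 and the genes named here from lists without a call were chosen after their values were seen.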

How the data were processed

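The authors deposited raw counts of reads for each gene in each of the 6 libraries. STAR, SAMtools, HTSeq, DESeq2 and the build BDGP6 are listed per the submitters' processing notes, with no versions, roles or strand settings. Gene positions and exon lengths came from the Ensembl release 115 annotation (BDGP6.54), where 17626 of 17753 IDs matched. All 301 genes off the 5 major arms were at 0. From the counts, edgeR 4.0.16 in R 4.3.3 was run with TMM, filterByExpr, glmQLFit and a two-sided glmQLFTest of genotype alone. Benjamini-Hochberg adjustment was over 14069 genes, and every adjusted p is from that test unless another tool or setting is named. Intervals are 95% from that fit, and the biological coefficient of variation was 18.2%. Fits with other filters or fewer libraries were adjusted over the genes that each tested. The script was tested on simulated data. Alternatives were DESeq2 1.42.0, limma 3.58.1 (voom), other scalings and filters, and fits without single libraries. Within a genotype, chi-square per degree of freedom between libraries was 14.2 to 55.8, so none was a copy. The limit of 3 counts covers counting error only, since PCR reads without molecular identifiers are not independent molecules.

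Members, lists, tests and alternatives were chosen with earlier results of these data known. All members are named. Values in every library are given for called members, 6 others with the lowest p, and the most abundant member of each role per kb. By later choice they are also given for trpl, Rh5 and ss.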

Additional observations from a re-analysis of the deposited data

How the results depend on the processing

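Over the 31 members and 15 other settings, 457 fits kept their side of the threshold, 3 lost a call and 5 gained one, and 0 called members changed direction. Against 432 genes called in all, the count was 747 with the filter of 5 CPM, 916 by DESeq2 and 1082 in 4 libraries (neither wBerlin replicate 1 nor Kdm3 KO replicate 2). With 1 library left out it was 243 to 735, at 243 without wBerlin replicate 2, 267 without Kdm3 KO replicate 3, 726 without Kdm3 KO replicate 2 and 735 without wBerlin replicate 1. Higher calls outnumbered lower ones (303 and 129) in every setting but the fit without wBerlin replicate 1 (268 and 467), nearly evenly with no filter (286 and 266). Members called higher numbered 1 by DESeq2 (ninaD), 2 in the 4 libraries (trpl and ninaB) and 0 to 1 with 1 library left out, against 0. Members called lower numbered 1 to 3 with 1 library left out, lowest without Kdm3 KO replicate 3, against 3. The members' median log2 fold change was 0.18 in the 4 libraries, against 0.01. Most members were highest in the wBerlin library left out and lowest in the Kdm3 KO library left out. Leaving these out raises the median by construction, and why these libraries differed was not tested. With the replicate number as a block, 779 genes and 1 higher member (ninaD, adjusted p = 0.0468) were called. Deviations of same-numbered libraries correlated at 0.342, 0.248 and −0.0495, and those of differently numbered libraries at −0.326 to 0.180. The labels state no day or batch for the numbers, so the block was kept as an alternative. Whether the numbers pair the libraries remains unsettled. Leaving out a library also leaves 2 in its group, which are then assumed to vary like the other genotype. For depth, 26 of 31 members had a mean of at least 100 CPM, and trpgamma was the scarcest. The planned look at promoter motifs was not run.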
